A study of Mus musculus with 6 samples.

Results

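Long noncoding RNAs that work in the nucleus or that are tied to p53 were followed in ID8 cells with and without Trp53. The group was set by name and held 7 genes, Malat1, Neat1, Miat, Gas5, Pvt1, Trp53cor1 and Dubr, of the 41327 genes in the count table. Total RNA had been sequenced with a stranded, ribosomal-RNA-depleting kit from 3 Trp53_KO libraries (genotype Trp53-/-) and 3 Trp53_WT libraries (genotype Trp53+/+). All 6 came from ID8, an immortalized C57BL/6 cell line labelled as ovarian surface epithelium, which was untreated and growing asynchronously. Whether the libraries of a genotype are separate cultures or separate clones is not in the labels, so every p-value here reflects library-to-library spread that may be technical only. In bulk RNA, fewer cells that express a gene and less of its RNA per cell cannot be told apart.

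Long noncoding RNAs are transcripts without a long open reading frame. Malat1 and Neat1 stay in the nucleus, where Malat1 is enriched in nuclear speckles, the stores of splicing factors, and the long form of Neat1 is the scaffold of paraspeckles, bodies that hold RNA-binding proteins. p53 is a transcription factor that acts through the DNA elements it binds, and Neat1, Pvt1, Trp53cor1 and the protein-coding gene Cdkn1a have each been described among its direct targets. Gas5 carries small nucleolar RNAs (snoRNAs) in its introns, and its spliced exons are removed by nonsense-mediated decay when they are translated.

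Malat1 and Pvt1 RNA fell to about 65.0% and 74.6% of the Trp53_WT level in Trp53_KO cells, and Dubr fell to 50.6%. Neat1 had a fold change close to that of Malat1 but a wider spread, and it did not pass the test. Gas5 did not pass either, and Trp53cor1 and Miat were at or near 0 counts. Of the 5 members with enough reads to be tested, 3 were called at an adjusted p under 0.05 (edgeR's quasi-likelihood test, Benjamini-Hochberg over 13651 genes), all 3 lower in Trp53_KO. Of all tested genes 30.3% were called, 16.1% lower and 14.1% higher, so a call was a common outcome. The median log2 fold change of all tested genes was -0.02.

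The libraries held between 15319956 and 19954170 counts. Counts of Trp53_WT replicate 1 differed from the other 2 Trp53_WT libraries with a chi-square per degree of freedom of 27.5 and 26.9. The same measure was 2.01 between those 2 and 4.27 to 8.81 between Trp53_KO libraries. For some results, but not all, values without Trp53_WT replicate 1 are therefore also given. Mitochondrial genes held 1.63% to 1.86% of the counts in Trp53_KO and 1.81% to 2.10% in Trp53_WT, and the part of this difference in any result was not tested. Trp53 RNA, the check on the labels, was at 29.6, 25.5 and 25.3 counts scaled to library size (CPM) in Trp53_KO and at 110.0, 97.2 and 104.6 CPM in Trp53_WT, a log2 fold change of -1.95 ± 0.09 (SE; adjusted p = 2.7e-07, edgeR). The labels do not give which part of Trp53 was altered. Of 18 ovarian surface and mesothelial markers 15 were tested, 8 higher and 4 lower (80.0% called, against 30.3% of all tested genes). The 18 summed to 4178 to 4503 CPM in Trp53_KO and 3874 to 3968 CPM in Trp53_WT. Bnc1, a transcription factor gene of that list, had 4 counts in all in Trp53_KO against 2089 in Trp53_WT, whereas Lrrn4 had 3605 in Trp53_KO against 13 in Trp53_WT and Amhr2, an anti-Müllerian hormone receptor gene, 2170 in Trp53_KO against 26 in Trp53_WT. Of 8 immune markers, 4 were at 0 in every library and the summed level was 7.97 to 10.1 CPM in Trp53_KO and 31.97 to 35.03 CPM in Trp53_WT, nearly all of it from Cd14 and Cd68. The 6 endothelial markers summed to 2.55 to 3.20 CPM in Trp53_KO and 1.73 to 2.25 CPM in Trp53_WT. Of 6 fibroblast markers 4 were tested, all 4 higher, as were 14.1% of all tested genes. The 6 summed to 694.7 to 848.7 CPM in Trp53_KO and 225.8 to 287.8 CPM in Trp53_WT, mainly from Col1a1 and Dcn. The part of these markers in the levels of the noncoding RNAs was not tested.

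The promoter windows below are shown because the members are set beside p53, which would act through such DNA. Each is from RefSeq on GRCm38.p6 and runs from 250 bases before to 50 bases after an annotated start, read 5′ to 3′ on the strand of the gene, with the transcribed 50 bases in capitals. RefSeq entries were matched for 4 of the 7 members, of which the 3 that could be tested are printed (for Gas5 the second of its 2 entries). Neat1, Pvt1 and Trp53cor1 have no entry in that table.
Malat1 (chr19:5802623-5802922, minus strand): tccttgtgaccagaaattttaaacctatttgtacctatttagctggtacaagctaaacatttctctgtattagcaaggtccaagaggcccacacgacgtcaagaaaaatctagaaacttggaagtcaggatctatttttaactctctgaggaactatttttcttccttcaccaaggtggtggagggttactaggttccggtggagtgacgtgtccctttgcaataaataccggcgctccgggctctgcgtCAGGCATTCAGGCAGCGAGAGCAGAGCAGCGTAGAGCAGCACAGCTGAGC
Gas5 (chr1:161034916-161035215, plus strand): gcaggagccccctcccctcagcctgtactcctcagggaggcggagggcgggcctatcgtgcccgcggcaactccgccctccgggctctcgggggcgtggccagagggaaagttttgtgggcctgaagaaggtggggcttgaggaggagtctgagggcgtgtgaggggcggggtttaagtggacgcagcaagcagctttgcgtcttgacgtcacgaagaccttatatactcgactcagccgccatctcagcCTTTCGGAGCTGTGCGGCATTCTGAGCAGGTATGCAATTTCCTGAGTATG
Dubr (chr16:50732724-50733023, minus strand): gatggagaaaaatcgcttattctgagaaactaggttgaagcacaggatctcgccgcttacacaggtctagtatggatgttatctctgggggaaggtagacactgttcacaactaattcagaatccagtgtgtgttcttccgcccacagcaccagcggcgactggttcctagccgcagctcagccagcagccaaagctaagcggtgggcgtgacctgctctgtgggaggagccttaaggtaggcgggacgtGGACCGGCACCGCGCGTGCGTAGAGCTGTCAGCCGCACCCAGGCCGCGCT

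The consensus p53 element, a pair of decamers, was searched with up to 2 mismatches in all and a spacer of up to 13 bases. It had no match in any of the 5 windows of the members, and 2.12% of the 32851 promoter windows of the same length hold one. For comparison, the upstream start of Cdkn1a, the classical p53 target that neighbours Trp53cor1, has 2 matches, of which the one without a spacer, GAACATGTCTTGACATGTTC (chr17:29090928-29090947, plus strand, 1 mismatch), begins 51 bases before the start. Other motifs were searched on both strands. The Gas5 window holds TGACGTCA at position -46, a sequence found in 1.79% of all windows. The transcribed part of Gas5 opens with the pyrimidine run CTTTC, the kind of start known from 5′ terminal oligopyrimidine RNAs. A start with a C followed by pyrimidines of that length occurs in 2.51% of all windows and in 3 of the 19 snoRNA host genes with an entry, Gas5 included. The Miat window has such a start too, with a run of 6, whereas the other Gas5 entry does not. The Dubr window holds GGGCGG at position -112, as 35.7% of windows do, and none of the searched motifs was found in that of Malat1 (TATAAA is in 13.6% of windows and CACGTG in 7.15%). These matches describe letters in the windows and say nothing of binding.

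Malat1 (chr19:5795690-5802672, GRCm38, minus strand) is a single long exon of 6.98 kb in its main annotated form and was the most abundant of the 7 in every library. Its level was 6384, 7357 and 7052 CPM in Trp53_KO and 10814, 10683 and 10475 CPM in Trp53_WT. Every Trp53_KO library lay below every Trp53_WT library, and the Trp53_WT libraries lay within a narrow band. Of all tested genes 24.2% were separated in this direction. The means were 6931 ± 498 CPM in Trp53_KO and 10657 ± 171 CPM in Trp53_WT (SD, n = 3 each), and the log2 fold change was -0.62 ± 0.08 (SE; adjusted p = 2.0e-04, edgeR). The fold change stayed between -0.66 and -0.55 when any 1 library was left out, and the call was kept each time.

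Neat1 (chr19:5824708-5845478, minus strand) lies 22.04 kb from Malat1 and is transcribed in the same direction. It measured 1798, 2216 and 3120 CPM in Trp53_KO and 4470, 3099 and 3085 CPM in Trp53_WT. The groups overlapped, because Trp53_KO replicate 3 lay just above Trp53_WT replicates 2 and 3, and Trp53_WT replicate 1 was the highest of all. The means were 2378 ± 676 CPM in Trp53_KO and 3551 ± 795 CPM in Trp53_WT (SD, n = 3 each), and the log2 fold change was -0.58 ± 0.20 (SE; unadjusted p = 0.018, adjusted p = 0.057, edgeR). The call turned on single libraries: the fold change was -0.82 without Trp53_KO replicate 3 (adjusted p = 0.013), -0.38 without Trp53_WT replicate 1 (adjusted p = 0.045), and -0.66 without either of the other Trp53_WT libraries (adjusted p = 0.041 without replicate 2 and 0.045 without replicate 3, edgeR). It was -0.40 (adjusted p = 0.18) without Trp53_KO replicate 1 and -0.52 (adjusted p = 0.17, edgeR) without Trp53_KO replicate 2. The direction was lower in Trp53_KO in each case.

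Whether the neighbouring nuclear RNAs moved by unequal amounts was asked with the ratio of Neat1 to Malat1 counts within each library. The ratio was 0.282, 0.301 and 0.442 in Trp53_KO and 0.413, 0.290 and 0.295 in Trp53_WT. One library of each genotype stood high and the other 4 lay close together. The mean log2 ratio was -1.58 ± 0.35 in Trp53_KO and -1.61 ± 0.29 in Trp53_WT (SD, n = 3 each), a difference of 0.03 (exact permutation test, two-sided, p = 0.80, where 3 against 3 libraries cannot give less than 0.10). The sign of that difference changed to -0.17 without Trp53_KO replicate 3, so no direction can be read from it.

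Pvt1 (chr15:62037986-62378096, plus strand), a locus of 340.1 kb whose RNA is known to raise Myc protein in tumours, was a low-level transcript. It was at 25.8, 26.2 and 24.0 CPM in Trp53_KO and at 35.4, 33.8 and 32.7 CPM in Trp53_WT. The groups did not overlap and each was tight. The means were 25.3 ± 1.2 CPM in Trp53_KO and 34.0 ± 1.3 CPM in Trp53_WT (SD, n = 3 each), and the log2 fold change was -0.42 ± 0.08 (SE; adjusted p = 0.0026, edgeR). Pvt1 was described in other studies as induced by p53 in mouse cells.

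Dubr (chr16:50719294-50732773, minus strand), first described in mouse muscle precursor cells, where it promotes differentiation, had the lowest level of the tested members. Its counts were 120, 111 and 131 in Trp53_KO and 273, 196 and 212 in Trp53_WT, or 6.11, 6.69 and 6.96 CPM in Trp53_KO and 18.4, 9.69 and 11.4 CPM in Trp53_WT. The Trp53_KO libraries were all below the Trp53_WT ones, among which replicate 1 was far the highest. The log2 fold change was -0.98 ± 0.22 (SE; adjusted p = 0.0080, edgeR). Without Trp53_WT replicate 1 it was -0.68 (adjusted p = 4.3e-04, edgeR).

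Gas5 (chr1:161034422-161038539, plus strand), a growth-arrest transcript, was the one tested member with a positive fold change. It was at 433, 444 and 415 CPM in Trp53_KO and at 341, 416 and 386 CPM in Trp53_WT. Trp53_KO replicate 3 lay just below Trp53_WT replicate 2, so the groups overlapped, and Trp53_WT replicate 1 was the lowest library. The means were 431 ± 15 CPM in Trp53_KO and 381 ± 38 CPM in Trp53_WT (SD, n = 3 each), and the log2 fold change was 0.18 ± 0.08 (SE; adjusted p = 0.12, edgeR). Gas5 was also uncalled in each fit that left out 1 library, and without Trp53_WT replicate 1 its log2 fold change was 0.10.

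Trp53cor1 (chr17:29057430-29079179, minus strand), also called lincRNA-p21, is transcribed away from Cdkn1a at a distance of 11.8 kb. Its counts were 0, 0 and 0 in Trp53_KO and 3, 8 and 0 in Trp53_WT. It was too low for the test across genes. With the libraries of each genotype pooled, the 11 counts in Trp53_WT stood 3.76-fold above a floor of 3 counts in Trp53_KO. That ratio takes no account of the error on the 11 counts, so it is not a lower bound. Trp53_WT replicate 3, at 0 counts, did not differ from the Trp53_KO libraries. With no filter on low counts its adjusted p was 0.012 (edgeR), a value that rests on 11 counts in 2 libraries. Miat (chr5:112213228-112229395, minus strand), a nuclear RNA that binds splicing regulators, had 0 counts in Trp53_KO and 1 count in Trp53_WT, and no difference was detectable at this depth.

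**Figure D1:**
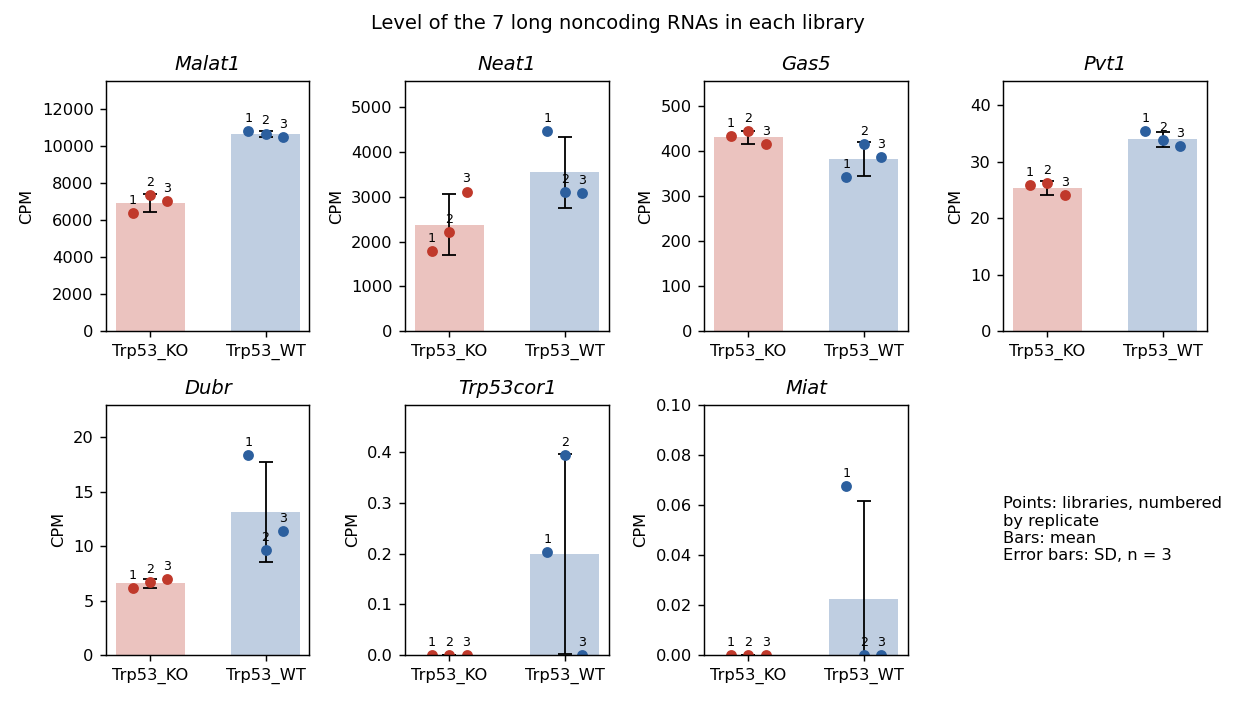
Level of each of the 7 long noncoding RNAs, in CPM on a separate linear axis per gene, in the 3 Trp53_KO and the 3 Trp53_WT libraries (points, numbered by replicate), with bars for the mean and error bars for the SD. For Malat1, Pvt1 and Dubr the Trp53_KO points all lie below the Trp53_WT points, whereas those of Neat1 and Gas5 overlap.

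Per kb of annotated exon, the order of levels in Trp53_KO was Malat1, at 993 ± 71 CPM per kb, then Gas5 and Neat1, at 115 ± 4 and 114 ± 33 CPM per kb, then Pvt1 at 3.62 ± 0.17, Dubr at 1.41 ± 0.09 and Trp53cor1 and Miat at 0 (SD, n = 3 each). In Trp53_WT it was Malat1 at 1526 ± 25 CPM per kb, Neat1 at 171 ± 38, Gas5 at 101 ± 10, Pvt1 at 4.86 ± 0.19, Dubr at 2.81 ± 0.99, Trp53cor1 at 0.053 ± 0.053 and Miat at 0.0024 ± 0.0042 (SD, n = 3 each). Gas5 and Neat1 did not differ beyond their spread in Trp53_KO, where Neat1 ran between 86.6 and 150.2 CPM per kb and Gas5 between 110.4 and 118.1. In Trp53_WT the libraries of these 2 genes did not overlap, with Neat1 at 148.5 to 215.2 and Gas5 at 90.8 to 110.7 CPM per kb. Malat1 stood apart from both in either genotype. The lengths are unions of all annotated exons in GENCODE M21, retained introns of Gas5 included, and the labels and files do not name the annotation behind the deposited counts.

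The plot of fold changes by setting shows which of these results depend on a single library. Neat1 and Dubr had the widest ranges. Malat1, Pvt1 and Dubr kept their call in all 13 alternative settings, and Gas5 stayed uncalled in all 13, with adjusted p between 0.064 and 0.27 (edgeR, DESeq2 or limma).

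**Figure D2:**
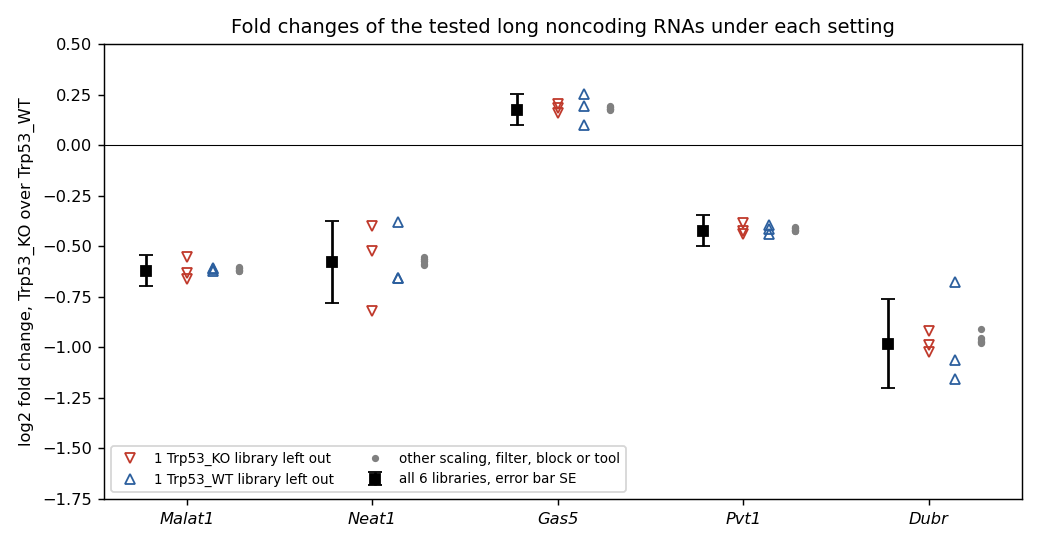
Log2 fold change of Trp53_KO over Trp53_WT (vertical axis) for the 5 tested members with all 6 libraries (squares, error bars SE), with 1 Trp53_KO or 1 Trp53_WT library left out (triangles), and under other scalings, filters, the replicate block or other tools (dots). Neat1 spreads from -0.82 to -0.38, while Pvt1 stays between -0.44 and -0.38.

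A second readout of the same loci came from the authors' deposited table of repeats, which gives a log2 fold change and an FDR per repeat copy and read direction, with 0.284% of its 773731 rows lower and 0.388% higher at an FDR under 0.05. The table was made from the same libraries, so it adds position along the gene and not new replicates, and the depth behind a row is unknown. Inside Neat1 it holds 30 rows read in the direction of the gene, of which 29 were negative and 12 (40.0%) were lower in Trp53_KO at that FDR. Their median log2 fold change in the authors' deposited table was -0.58 (quartiles -0.66 and -0.45), beside -0.58 from the gene counts. The rows lie 4.14 to 20.5 kb from the start, past the 3.17 kb at which the annotated short transcript Neat1-202 ends, in sequence that belongs to the 20.8 kb long transcript, and 7 of them also overlap a shorter annotated transcript near its far end. The row with the lowest FDR, a (TG)n tract 18.8 kb from the start, was at -0.74 in the authors' deposited table (FDR 3.5e-17), and an L1M3 copy, a fragment of a LINE element, 6.65 kb from the start was at -0.69 (FDR 3.0e-10). At FDR under 0.01, 5 of the 30 rows passed. From the same libraries the whole gene had overlapping groups and was not called (adjusted p = 0.057, edgeR). The test behind the deposited FDRs is not given, so how far they carry the spread between libraries cannot be told. The 18 rows read against Neat1 had a median of -0.01, with none called.

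Inside Dubr the authors' deposited table holds 21 rows in the direction of the gene and none against it. Of these, 18 were negative and 4 were lower in Trp53_KO, with a median of -1.34 over the 21. Annotated exons hold 5 of the 21, with a median of -1.10. Of the 4, the MLT1A0 copy, an LTR of the MaLR group, lies in an annotated exon, at -1.501 (FDR 0.010), and 3 lie in introns, of which LTR16B had the lowest FDR, at -3.77 (FDR 0.0038). Inside Pvt1, 280 of 359 sense rows were negative in the authors' deposited table, with a median of -0.55. Annotated exons hold only 6 of the 359, with a median of -0.35, so the rows of Pvt1 are mostly intronic. The share of negative rows over the whole deposited table was not computed. Only 2 of the 359 (0.557%) were lower at FDR under 0.05, both intronic, a share to be read against 0.284% of all rows. None of the 5 sense rows in Trp53cor1, all 5 negative, nor the single sense row in Malat1, a B1_Mus1 copy at -0.31, was called. No rows lie in Gas5 or Miat.

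**Figure D3:**
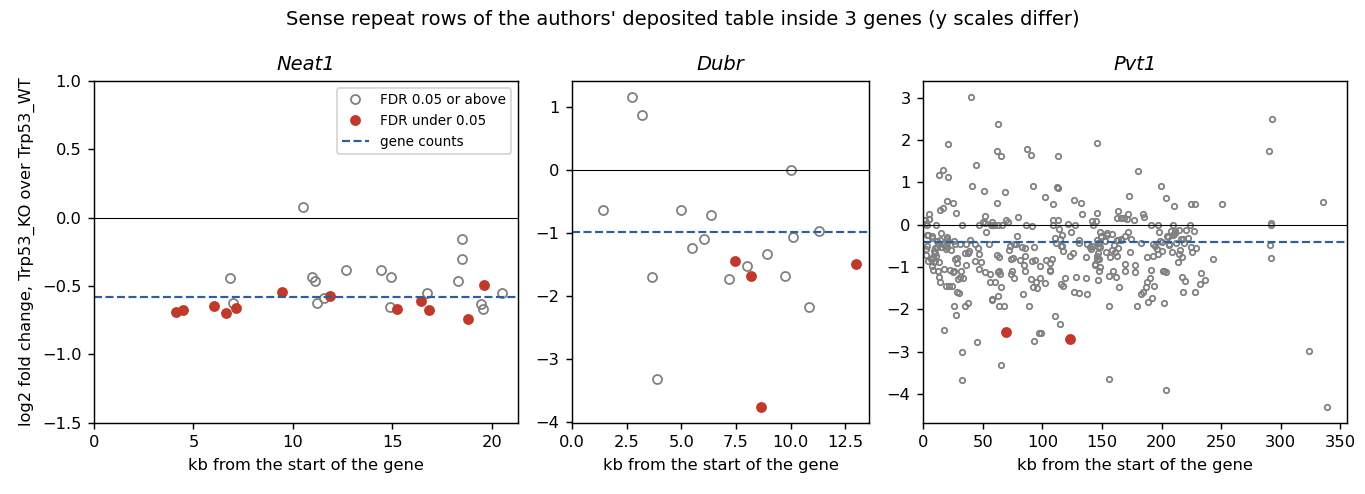
Log2 fold change of Trp53_KO over Trp53_WT in the authors' deposited table (vertical axis) of each sense repeat row against its distance in kb from the start of Neat1, Dubr and Pvt1, with rows at FDR under 0.05 filled and the fold change of the gene counts dashed. In Neat1 29 of 30 rows lie below 0 along the long transcript, from 4.14 to 20.5 kb, while in Pvt1 rows scatter widely and 2 of 359 are filled. Annotated exons hold 6 of the 359 rows in Pvt1 and 5 of the 21 in Dubr.

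The genes around the members were called about as often as all tested genes. Within 200 kb of the 7 members, 35 other genes were tested, of which 6 were higher and 5 lower in Trp53_KO (31.4%, against 30.3% of all tested genes), with a median log2 fold change of -0.05. On the far side of Neat1, Frmd8os, an antisense transcript 0.145 kb away, was near the detection limit, with a log2 fold change of -0.23 ± 0.41, and Frmd8 was at 0.15 ± 0.08 (SE), neither called. Farther out, Slc25a45, a mitochondrial carrier gene 32.3 kb from Neat1, was at 18.5, 19.4 and 22.2 CPM in Trp53_KO and at 7.35, 7.96 and 7.55 CPM in Trp53_WT, and Cdc42ep2, an effector of the GTPase Cdc42, rose by 1.67 ± 0.15 on the log2 scale (SE; adjusted p = 2.6e-05, edgeR). These 2, like Capn1 (a calpain protease, -0.44 ± 0.09), are named after their values were seen.

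Cdkn1a, the CDK inhibitor gene beside Trp53cor1, was at 1.73, 1.51 and 1.54 CPM in Trp53_KO and at 46.0, 39.5 and 37.5 CPM in Trp53_WT, a log2 fold change of -4.67 ± 0.13 (SE; adjusted p = 1.3e-08, edgeR). The neighbour on the other side, Srsf3, a splicing factor gene, had a log2 fold change of 0.08 and was not called. The ratio of Trp53cor1 to Cdkn1a could not be formed, since Trp53cor1 had no counts in 4 of the 6 libraries. Myc, 47.6 kb from Pvt1 and its only tested neighbour, was at 140, 125 and 125 CPM in Trp53_KO and at 167, 144 and 137 CPM in Trp53_WT, a log2 fold change of -0.20 ± 0.09 (SE; adjusted p = 0.13, edgeR). The range of Myc in Trp53_KO reached into that of Trp53_WT. Around Gas5, 2 of 6 tested genes were called, both lower, namely Rc3h1, an RNA decay factor gene (-0.60 ± 0.14, SE), and Cenpl, a kinetochore gene (-0.61 ± 0.16, SE), each named after its value was seen. Serpinc1, the antithrombin gene, was not called, at -0.23, nor was Zbtb37, which overlaps Gas5 on the opposite strand, at -0.05 on the log2 scale. Beside Miat, Tpst2, a protein sulfotransferase gene, was at 0.30 ± 0.10 (SE; adjusted p = 0.043, edgeR), and its adjusted p was between 0.061 and 0.16 in the fits that left out Trp53_KO replicate 1, Trp53_KO replicate 3, Trp53_WT replicate 2 or Trp53_WT replicate 3. No tested gene lay within 200 kb of Dubr.

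**Figure D4:**
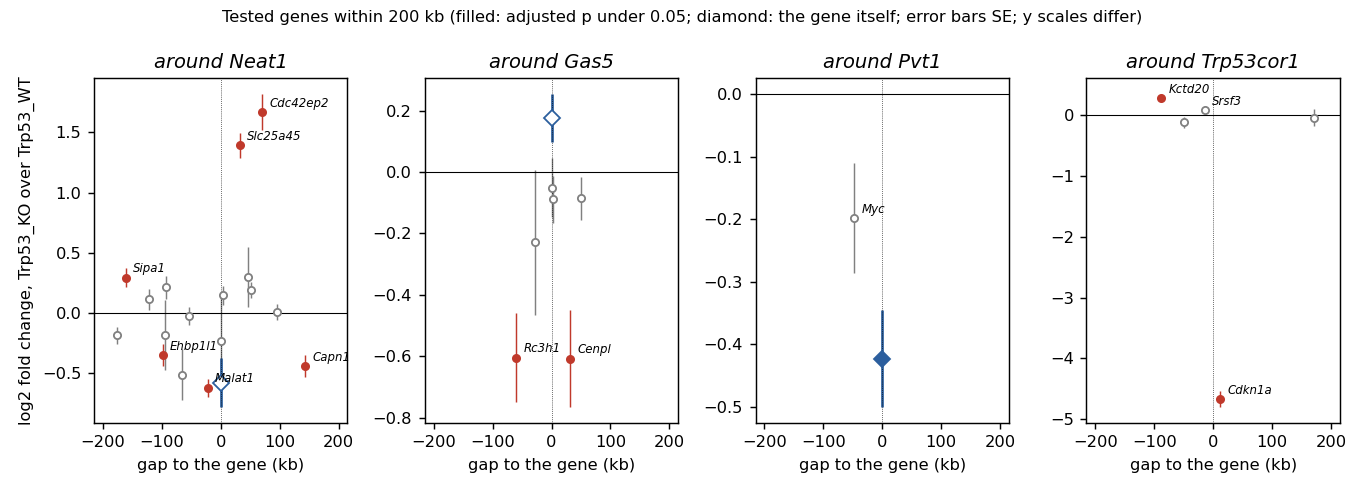
Log2 fold change of Trp53_KO over Trp53_WT (vertical axis, error bars SE) of the tested genes within 200 kb of Neat1, Gas5, Pvt1 and Trp53cor1 against their gap in kb, negative toward lower coordinates, with called genes filled and the long noncoding RNA itself as a diamond at 0 (filled if called). Cdkn1a lies 11.8 kb from Trp53cor1 at -4.67, while Slc25a45 and Cdc42ep2 lie above 1 around Neat1.

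The protein partners of the nuclear RNAs were read as lists. Of 20 paraspeckle protein genes, 6 rose and 1 fell (35.0% called, against 30.3% of all tested genes), with a median log2 fold change of 0.08 against -0.02 for all. Sfpq, a core paraspeckle protein that binds Neat1, was at 443 ± 19 CPM in Trp53_KO and 362 ± 12 CPM in Trp53_WT (SD, n = 3 each), and the log2 fold change was 0.29 ± 0.06 (SE; adjusted p = 0.0055, edgeR). Tardbp, the RNA-binding protein TDP-43, rose by 0.31 and Hnrnpa1, a splicing repressor, by 0.36, while Rbm3, a cold-induced RNA-binding protein named after its value was seen, fell by 0.28. The count of 7 fell to 3 without Trp53_KO replicate 3 and to 4 without Trp53_WT replicate 3, and rose to 9 without Trp53_WT replicate 1. Of 25 nuclear speckle genes 1 rose, Acin1 (0.25 ± 0.07), and none fell (4.0% called), with a median of 0.12. The count ran from 0, without Trp53_KO replicate 1 or 3, to 4 without Trp53_WT replicate 1 and 6 with no filter on low counts. RNase P and RNase Z are enzymes that process the transcripts of Malat1 and of long Neat1 on their 3′ side. Of their 14 genes 1 rose, Elac2 (0.25), and 1 fell, Pop7 (-0.28), or 14.3% called, against 30.3% of all tested genes. Neither Elac2 nor Pop7 was called in the fits that left out Trp53_KO replicate 1, Trp53_KO replicate 3, Trp53_WT replicate 2 or Trp53_WT replicate 3.

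Gas5 was set beside a list of other snoRNA host transcripts. Of its 15 tested genes, 9 rose and none fell (60.0% called, against 30.3% of all tested genes in either direction and 14.1% higher). The median log2 fold change of the list was 0.29, beside the uncalled 0.18 of Gas5. Snhg5 was at 146, 145 and 140 CPM in Trp53_KO and at 104, 118 and 119 CPM in Trp53_WT, a log2 fold change of 0.34 ± 0.07 (SE; adjusted p = 0.0051, edgeR). Its groups did not overlap. Snhg18, a snoRNA host near the detection limit in Trp53_WT, rose by 5.74 ± 0.25, with 7.69, 8.32 and 8.98 CPM in Trp53_KO and 0.067, 0.15 and 0.21 CPM in Trp53_WT. Mir99ahg, which rose by 2.73 ± 0.11, hosts microRNAs, not snoRNAs. Without it, a count added after seeing the data, 8 of the remaining 14 rose, with a median of 0.29. The count of 9 fell to 5 without Trp53_KO replicate 1 or 2. Of the snoRNAs inside Gas5, Snord47, Snord78 and Snord80 were listed with 0 counts in every library. Gm27694, a small gene inside the abundant Malat1, also had 0 counts. How reads shared by overlapping genes were assigned is not stated, so these zeros do not show that the snoRNAs were absent. Of 15 nonsense-mediated decay genes 4 rose and 1 fell (33.3% called, against 30.3% of all tested genes), among them Upf2 (0.53 ± 0.11) and Upf3b (-0.46 ± 0.09), both adaptors of the decay factor Upf1, and Magoh (0.57 ± 0.14), a subunit of the exon junction complex. That count fell to 3 without Trp53_KO replicate 3, and the call of Magoh was lost without Trp53_KO replicate 2 (adjusted p = 0.052, edgeR).

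For Pvt1 and Myc, a list of 9 genes, Myc included, was tested, of which none rose and 3 fell, with a median of -0.20. The share called was 33.3%, close to the 30.3% of all tested genes called in either direction (16.1% lower). Mxd4, which competes with Myc for Max, was at 7.54, 8.38 and 8.50 CPM in Trp53_KO and at 15.8, 19.8 and 19.5 CPM in Trp53_WT, a log2 fold change of -1.18 ± 0.12 (SE; adjusted p = 5.3e-05, edgeR). Its groups did not overlap. Mxd1 (-0.47) and Max (-0.29) were called with all libraries, but without Trp53_KO replicate 2 or 3, and with DESeq2, Mxd4 was the 1 gene left of the 3. For Trp53cor1, Nfe2l2, a stress-response transcription factor gene described as its target, fell by 0.51 ± 0.06 (SE), and Hnrnpk, whose protein binds Trp53cor1, was not called at 0.11. Of 4 splicing regulators bound by Miat, Qk, an RNA-binding protein gene, rose by 0.35 ± 0.08 (SE) and 3 were not called, and 2 of the 4 were called without Trp53_WT replicate 1. For Dubr, described in mouse muscle cells as recruiting DNA methyltransferases, all 4 tested genes of its list of 6 rose (14.1% of all tested genes were higher). Among them were Dnmt3a (0.45 ± 0.09), Dnmt3b (0.52 ± 0.13) and the GTPase gene Nras (0.23 ± 0.07). Dppa2, with 0 counts in Trp53_KO and 6 in Trp53_WT, and Dppa4, with 0 in both, were too low to test. The count of 4 fell to 2 without Trp53_KO replicate 1 or 3, without Trp53_WT replicate 2 or 3, and with the replicate number as a block.

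Among 26 other named long noncoding RNAs, 4 rose and 7 fell (42.3% called, against 30.3% of all tested genes), with a median of -0.08. Lncpint, a long noncoding RNA known as a p53 target in mouse cells, was at 22.2, 23.9 and 29.4 CPM in Trp53_KO and at 54.8, 44.2 and 39.6 CPM in Trp53_WT, a log2 fold change of -0.87 ± 0.14 (SE; adjusted p = 0.0011, edgeR). Its groups did not overlap. Wt1os, the antisense partner of Wt1, rose by 1.27 ± 0.11, and Lncenc1 fell by 1.003 ± 0.17 (SE).

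**Figure D5:**
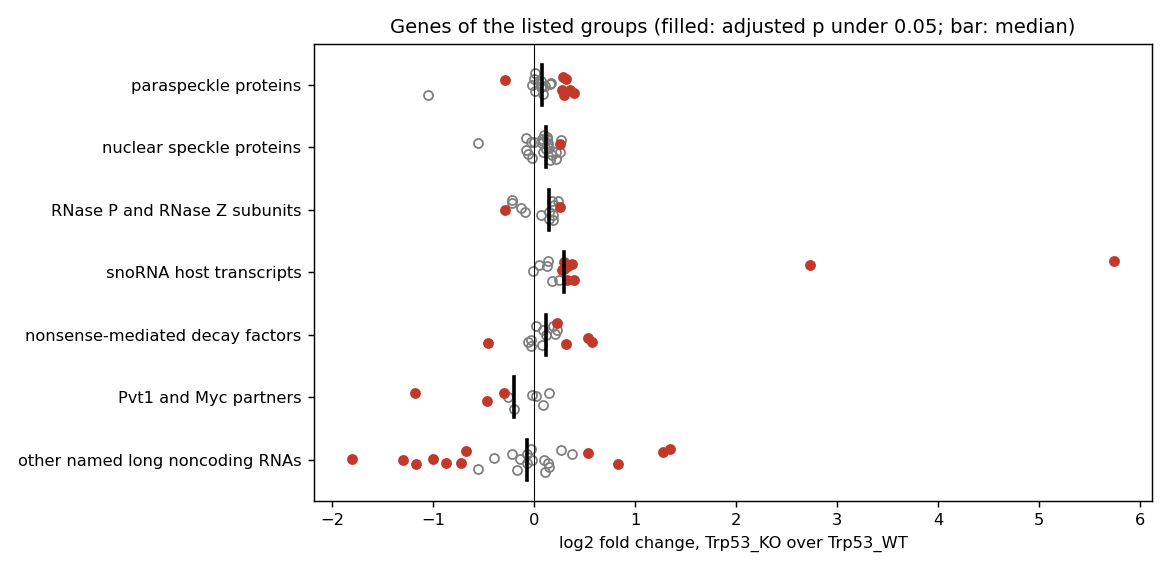
Log2 fold change of Trp53_KO over Trp53_WT (horizontal axis) of each tested gene in 7 lists (rows), filled at an adjusted p under 0.05, with the median as a bar. In the snoRNA host list 9 of 15 genes are filled, all above 0, while 1 of 25 nuclear speckle genes is filled.

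The genes whose levels ran most like each member were sought over the 6 libraries, among 9727 genes with a mean of at least 5 CPM, by the root mean square difference of centred log2 levels. For Malat1 they were Ccng2 (0.038) and Cdkl2 (0.043), for Pvt1 Galnt7 (0.020) and Scamp1 (0.022), and for Gas5 Rmdn3 (0.021) and Dbr1 (0.022), where Dbr1 encodes the enzyme that opens intron lariats. Ccng2, a cyclin G gene, was at 8.97, 10.7 and 10.1 CPM in Trp53_KO and at 14.97, 15.2 and 15.7 CPM in Trp53_WT, the same tight Trp53_WT band as that of Malat1. For Neat1 the nearest were Igip (0.134) and Neil3 (0.148), and for Dubr Tcp11l1 (0.094) and Ids (0.099). The SD of the member's own log2 level over the libraries, to which these differences can be compared, was 0.35 for Malat1, 0.46 for Neat1, 0.14 for Gas5, 0.23 for Pvt1 and 0.57 for Dubr. Ids, a lysosomal sulfatase gene, was at 112 CPM in Trp53_WT replicate 1, against 65.0 and 70.3 CPM in the other 2 Trp53_WT libraries. These likenesses are taken from 6 libraries that share their scaling and their genotype split, and they say nothing of shared control.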

How the data were processed

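Per the labels' protocols, total RNA was treated with DNase and made into stranded total RNA libraries, and the submitters' processing notes name STAR, featureCounts, edgeR and the build mm10. No version, setting or gene annotation is named there. Raw whole-number counts per gene symbol were deposited, and for repeats the authors deposited a log2 fold change and an FDR (an adjusted p-value) per locus and read direction for the single comparison, made by a test that the labels do not give. The base of the logarithm is not stated and was taken as log2, since its median ratio to the log2 fold change of the gene counts was 1.03 over 795 exonic rows, where natural logarithms would give 0.693. The strand suffix of a row was taken as read direction, which matched the gene's strand for 88.0% of 56873 rows.

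Counts were tested with edgeR 4.0.16 (filterByExpr, TMM, quasi-likelihood test on genotype alone, all 6 libraries, Benjamini-Hochberg over 13651 genes, threshold 0.05). The biological coefficient of variation was 9.75%. CPM are TMM-scaled, and SEs are approximate. No replicate pair agreed within sampling noise. The 3-count floor covers counting error only. On simulated counts with the same group sizes, a log2 change of 0.5 was recovered for 48 of 99 genes and one of 1 for 83 of 99. There were 20 false calls, a larger share of the calls than the threshold of 0.05 names. The simulation changed a far smaller share of genes than the 30.3% called in the data. Its recovery and false calls therefore do not carry over to the real comparison. Positions come from GENCODE M21 on GRCm38. Named genes were the 7 members, Trp53, Cdkn1a, Myc, up to 3 genes per list with the lowest adjusted p, the nearest tested neighbours within 200 kb, and the 2 most alike genes per member. Some genes taken by the rule are not reported here. The members, lists and rule were chosen with earlier results of these data known. Alternatives were RLE and upper-quartile scaling, other filters, a replicate block, DESeq2 1.42.0, limma-voom (limma 3.58.1), each library left out, exonic repeat rows and an FDR under 0.01.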

Additional observations from a re-analysis of the deposited data

How the results depend on the processing

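Malat1, Pvt1 and Dubr stayed lower and called, and Gas5 uncalled, in all 13 settings. The number of genes called ran from 2977 (without Trp53_KO replicate 1) to 4984 (without Trp53_WT replicate 1). Neat1 just crossed the threshold under upper-quartile scaling (-0.57, adjusted p = 0.049, edgeR) and with limma-voom (-0.59, adjusted p = 0.045). With no filter on low counts it was at -0.55 ± 0.09 (SE; adjusted p = 1.2e-06, edgeR), against an SE of 0.20 in the main fit. That low p-value came with a smaller SE and not with a larger fold change. Neat1 ran from -0.82 to -0.38 when 1 library was left out. With DESeq2 its adjusted p was 0.16. The cause was not tested. The Neat1 to Malat1 log2 difference ran from -0.17 to 0.20 over left-out libraries. Of the repeat rows called lower, an FDR under 0.01 left 5 in Neat1, 1 in Dubr and 1 in Pvt1, and exonic rows alone left 1 in Dubr and 0 in Pvt1, in each case by fewer rows passing or entering. Correlations of same-numbered libraries' deviations were -0.05, 0.08 and -0.12. The deviations are from means of only 3 libraries, so these values cannot decide whether the numbers pair them. The labels do not say. With the replicate block 3806 genes were called and Neat1 stood at -0.59 (adjusted p = 0.061, edgeR). Among 753 values of 58 other named genes, 698 kept direction and side of the threshold, 47 lost the call, 8 gained it and 0 reversed. Depth limits Trp53cor1 and Miat.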
